A study of Mus musculus with 18 samples.

Results

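Lin-Kit+ GFP- bone marrow cells that had been cultured with a TNFR2 blocking antibody (BA) were compared with the untreated cells of the same kind. The arrays were taken by their titles, TNFR2 BA, JAK2V617F- replicates 1 to 3 and untreated, JAK2V617F- replicates 1 to 3, which made 6 of the 18 arrays of the series. The series measured gene expression in JAK2V617F+ and JAK2V617F- cells of mice with a myeloproliferative neoplasm (MPN), untreated or under block of TNFR1 or of TNFR2. Marrow of Balb/c mice, which had been transplanted with marrow transduced with a retrovirus carrying JAK2V617F and GFP, was cultured for 16 h in RPMI with 10% FBS, IL-3 at 50 ng/mL and SCF at 100 ng/mL. Each blocking antibody was given at 10 μg/mL to its own culture. GFP+ and GFP- cells shared the culture and were separated only at the sort, so that the GFP- cells are untransduced cells of diseased mice and not cells of healthy animals. Marrow of 3 to 4 mice was used in each of 3 independent experiments, all groups had IL-3 and SCF, and an antibody control for the untreated cultures is not named in the labels. The array of untreated JAK2V617F+ replicate 3, which failed quality standards per the methods, was left out of the fit and is not among the 6 arrays.

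TNF signals through the receptors TNFR1 and TNFR2. TNFR1, encoded by Tnfrsf1a, carries a death domain and through TRADD, RIPK1 and FADD can lead either to NF-kB activation or to caspase-8 and cell death. TNFR2, encoded by Tnfrsf1b, has no death domain, binds TRAF2 together with the inhibitor of apoptosis proteins cIAP1 and cIAP2, and activates NF-kB, JNK and AKT. NF-kB switches on its own inhibitors, among them Nfkbia and Tnfaip3, so that the transcripts of these genes are commonly used to read the pathway. In blood progenitor cells, TNF is known both for suppressing growth and for promoting survival and myeloid output.

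No probe set differed between TNFR2 BA and untreated JAK2V617F- cells after adjustment over the 10335 probe sets (limma with the replicate number as a block, 0 at an adjusted p under 0.05, smallest adjusted p = 0.663), and a t-test paired by replicate number gave 0 as well. At an unadjusted p under 0.05, limma called 306 probe sets (2.96%), with 140 higher (1.35%) and 166 lower (1.61%) in treated cells, and the paired t-test called 387. With array weights limma called 604, so the count lay below or above the 517 that a threshold of 0.05 passes by chance depending on this setting. All 3 treated arrays lay above all 3 untreated arrays for 389 probe sets (3.76%) and below them for 417 (4.03%), together 7.8%. The treated array was higher in 3 of 3 pairs for 11% of probe sets and lower in 3 of 3 pairs for 11.8%. Differences were nevertheless large for single genes. The difference was over 1 on the log2 scale for 15.3% of probe sets and under -1 for 15.8%, and the median difference was -0.01.

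The absence of calls has to be read against the precision. A 95% interval of the difference reached a median of 2.46 log2 units to either side over all probe sets, 3.13 for those with a mean signal of 4 to 6, and 0.64 for those with a mean signal of 12 and over. An interval within 1 log2 unit of 0 was obtained for 507 probe sets (4.91%), most of them among the brightest, and for 0 of 26 genes of the TNF pathway and genes named by the study. Arrays of a pair differed by a median of 0.874 log2 units, untreated arrays among themselves by 0.952 and treated arrays among themselves by 1.05. The correlation between arrays of the same group was 0.723 to 0.819 and that between the 2 arrays of a pair was 0.781 to 0.832. A p over the threshold therefore does not show that a gene did not differ.

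**Figure D1:**
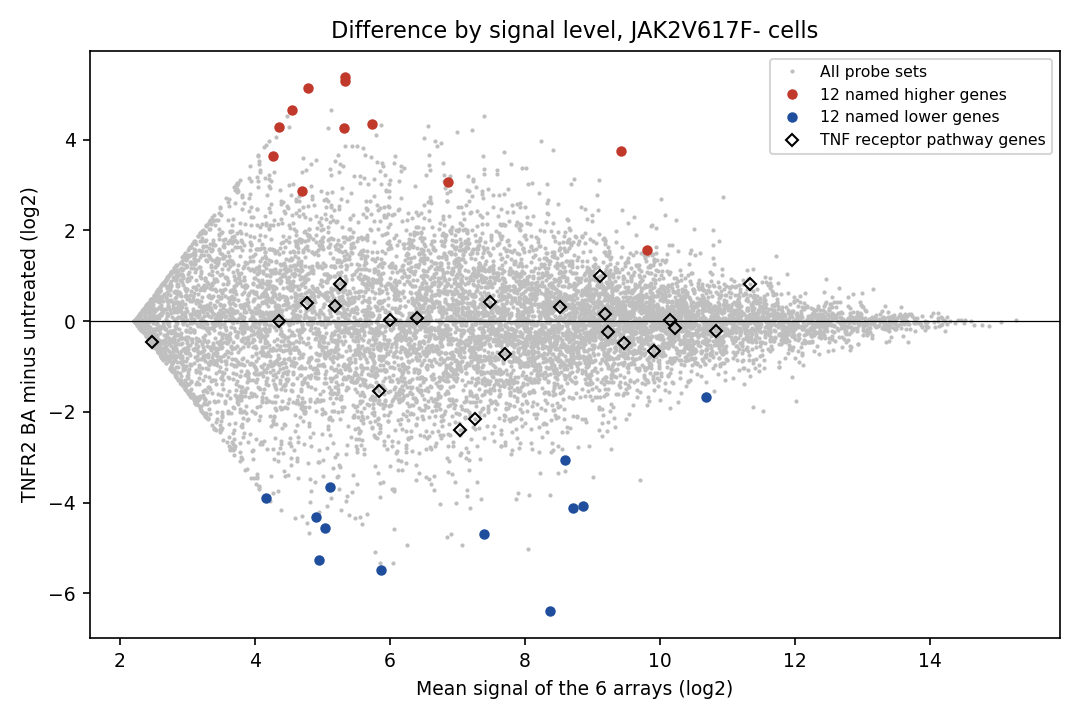
Difference between TNFR2 BA and untreated JAK2V617F- cells (y axis, log2) against the mean signal of the 6 arrays (x axis, log2) for 10335 probe sets, with the 12 named genes of each direction and the TNF receptor pathway genes marked. The scatter is widest between 4 and 8 and narrows at high signal, and the pathway genes lie inside it.

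The receptors themselves were well expressed on both sides of the comparison. Tnfrsf1b, the blocked receptor, had signals of 11.50, 9.43 and 11.86 in untreated replicates 1 to 3 and 11.80, 12.02 and 11.40 with TNFR2 BA. Only untreated replicate 2 stood lower, the groups overlapped, and the difference was 0.81 (95% interval -0.66 to 2.29). Tnfrsf1a, the receptor with the death domain, had 9.63, 9.08 and 9.35 against 9.35, 8.04 and 9.94, a difference of -0.24 (-1.89 to 1.41). Both transcripts were therefore present in treated cells, and the antibody acts on the receptor protein, which arrays do not measure. The ligand gene Tnf and the kinase gene Ripk1 are not among the probe sets analysed here. Adam17, the protease that sheds TNF and its receptors, was dim and lower in 3 of 3 pairs, with 5.78, 3.10 and 2.93 against 3.58, 2.22 and 2.32.

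Adaptors at the receptors did not separate the groups. Tradd, the adaptor of TNFR1, differed by -0.15 (-1.90 to 1.61), Traf2, the adaptor that TNFR2 binds directly, by 0.82 (-1.86 to 3.49), and Fadd, which recruits caspase-8, by 1.0 (-1.10 to 3.10). Birc2 and Birc3, the genes of cIAP1 and cIAP2, differed by 0.15 (-1.87 to 2.18) and 0.31 (-2.52 to 3.15). Casp8 differed by 0.03 (-1.43 to 1.48) and Cflar, which encodes the caspase-8 inhibitor c-FLIP, by 0.39 (-3.14 to 3.92). Casp8 lay between 9.0 and 10.97 on all 6 arrays, whereas Cflar had 2.68, 8.29 and 2.78 in untreated cells and 2.68, 6.36 and 5.87 in treated cells. Of the 35 genes listed for the TNF receptor complex 29 were measured. None passed an unadjusted p of 0.05, 0 were higher and 3 (Otulin, Adam17 and Daxx) were lower in 3 of 3 pairs, where 11.1% and 11.8% of all genes were, and the median difference was -0.15, beside -0.01 over all 9636 genes, of which 1.33% were higher and 1.55% lower at that p.

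Xiap and Mapk8, which the study followed up in JAK2V617F+ cells, were bright in JAK2V617F- cells with and without TNFR2 BA. The study chose both from these same arrays, by filters that also dropped genes that changed in JAK2V617F- cells. A small difference here was therefore part of that choice. Xiap, an inhibitor of caspases, had 10.30, 8.88 and 11.55 in untreated cells and 9.70, 7.99 and 11.04 in treated cells. Treated cells were lower in each pair, by less than the replicates differed among themselves, and the difference was -0.67 (-2.86 to 1.53). Mapk8, which encodes the stress kinase JNK1, had 10.27, 10.26 and 8.61 against 9.78, 9.76 and 8.15. It too was lower in 3 of 3 pairs, by -0.49 (-3.32 to 2.35), and its replicate 3 was the lowest array of both groups. The differences in the pairs of replicates 1 to 3 were -0.49, -0.50 and -0.46. Without treated replicate 3 the fitted difference of Mapk8 was 0.46, and without untreated replicate 1 it was 0.13. Each of these fits kept the other array of the broken pair, so their sign is not that of any pair. The interval of Mapk8 comes from a variance estimated over all 6 groups of the fit, and it is wide beside the even differences of the 3 pairs.

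**Figure D2:**
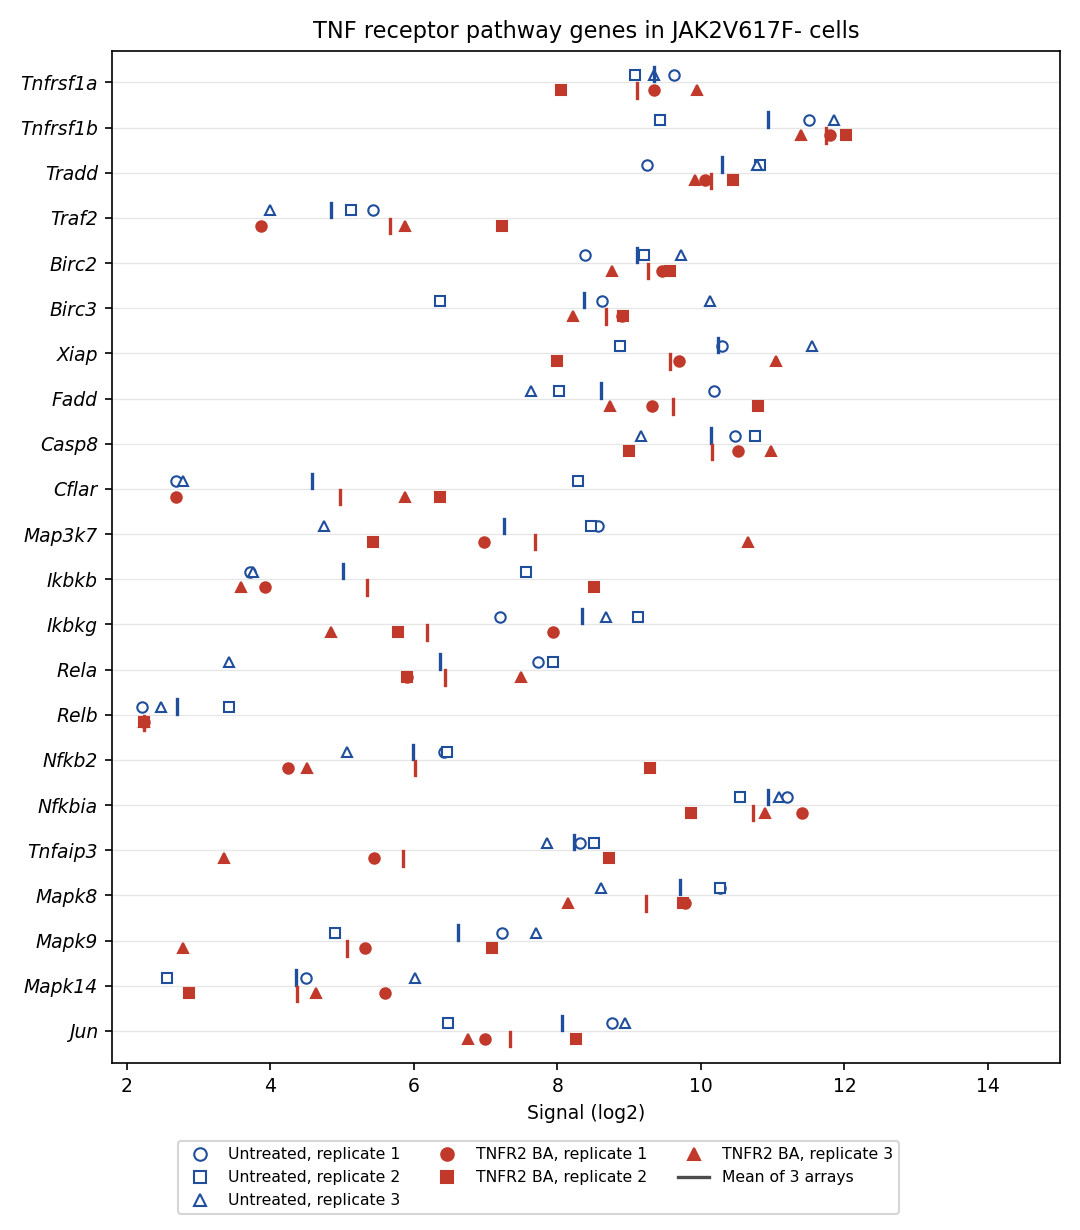
Log2 signal (x axis) of 22 TNF receptor pathway genes on the 6 arrays of JAK2V617F- cells, open blue symbols for untreated and filled red symbols for TNFR2 BA, with the symbol shape giving the replicate and a bar the mean of 3 arrays. Tnfrsf1b, Casp8 and Nfkbia stay bright on all arrays, and the treated and untreated symbols overlap in every gene shown.

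The feedback genes of NF-kB had mixed pairs and intervals that spanned 0. Nfkbia, which encodes the inhibitor IkB-alpha that holds NF-kB in the cytoplasm, had 11.20, 10.54 and 11.09 in untreated cells and 11.41, 9.86 and 10.89 with TNFR2 BA, a difference of -0.22 (-1.60 to 1.15). Tnfaip3, which encodes the deubiquitinase A20, had 8.32, 8.52 and 7.86 against 5.45, 8.72 and 3.35. Treated replicate 2 lay at the level of the untreated arrays, while treated replicates 1 and 3 stood lower, and the difference of -2.39 had an interval of -5.83 to 1.05. A promoter of each gene is shown because both genes carry sites through which NF-kB is known to act on its inhibitors. The stretches are the 250 bases before the RefSeq start (GRCm38.p6), 5′ to 3′ on the minus strand, at chr12:55492648-55492897 for Nfkbia and chr10:19015411-19015660 for Tnfaip3, with matches to the 10-base NF-kB consensus motif on either strand in capitals. Tnfaip3 has another RefSeq promoter, at chr10:19011914-19012213, which held 0 matches and is not shown.
Nfkbia: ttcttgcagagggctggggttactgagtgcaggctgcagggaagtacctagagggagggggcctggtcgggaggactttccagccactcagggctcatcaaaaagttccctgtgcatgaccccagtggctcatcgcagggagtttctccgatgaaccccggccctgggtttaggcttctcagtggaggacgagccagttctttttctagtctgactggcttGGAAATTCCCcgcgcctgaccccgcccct
Tnfaip3: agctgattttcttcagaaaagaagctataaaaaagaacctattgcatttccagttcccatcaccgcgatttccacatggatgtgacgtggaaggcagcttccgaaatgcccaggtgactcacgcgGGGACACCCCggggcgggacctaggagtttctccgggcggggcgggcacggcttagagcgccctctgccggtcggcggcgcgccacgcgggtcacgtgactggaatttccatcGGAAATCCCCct

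Searched on both strands, the motif was found in 4.51% of the 32851 RefSeq promoters of 300 bases. Of 9636 measured genes 7908 had a promoter in the table, and 471 of them (5.96%) held the motif. These 471 genes had a median difference of 0.00 with quartiles of -0.59 and 0.57, beside -0.01 with quartiles of -0.61 and 0.57 for the 7437 genes without it, and 3.4% against 2.89% passed an unadjusted p of 0.05. The motif was present for 13 of 24 NF-kB target genes that had a promoter. Among these 13, Bcl2l1, which encodes the survival protein BCL-XL, differed by -2.85, Tnfaip3 by -2.39, Cxcl10 by 1.22, Sod2 by 0.82 and Irf1 by 0.27, so that they lay on both sides of 0. A motif match is a description of the letters and not evidence of binding in these cells.

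Over the whole list of NF-kB targets, 32 of 50 genes were measured, 18 had a positive and 14 a negative difference, and the median was 0.11. Of these, 0 passed an unadjusted p of 0.05, where 2.87% of all genes did. The members that kept 1 direction in 3 of 3 pairs are given next, where 11.8% of all genes were lower and 11.1% higher. Lower in 3 of 3 pairs were Cd83, an activation marker of dendritic and B cells (-2.87), and Icam1, an adhesion molecule (-1.74). Icam1 had 10.48, 9.23 and 7.78 untreated and 8.62, 6.51 and 7.15 treated. Higher in 3 of 3 pairs were Gadd45b, a stress-response gene (1.78), Ninj1 (1.07) and Ccl4 (0.16), of which the last was near the lowest values of the arrays. Cytokine and chemokine genes of the list were mostly dim. Il6, Lif and Ccl2 exceeded 5 on few arrays, and Csf1 lay at 2.22 to 2.25 on all 6.

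Several NF-kB subunits and kinases varied more between replicates than between groups. Rela differed by 0.06 (-2.85 to 2.97), Nfkb2 by 0.03 (-2.79 to 2.85), Relb, which was near the lowest values, by -0.46 (-1.81 to 0.89), Ikbkb by 0.33 (-2.66 to 3.31) and Ikbkg, the scaffold of the IkB kinase, by -2.15 (-5.88 to 1.58). Rel, the c-Rel subunit, had 6.31, 8.08 and 7.77 in untreated cells and 9.88, 8.54 and 8.71 in treated cells, with the groups apart and a difference of 1.66. In this list 1 gene was apart and higher and 0 apart and lower, where 3.76% and 3.99% of all genes were. Nkrf, a repressor of NF-kB dependent promoters, had 7.08, 8.96 and 3.68 against 9.65, 10.98 and 8.24. It was higher in 3 of 3 pairs by 3.05 (0.74 to 5.36), and the groups overlapped. Nkrf was the single member of the 17 measured in this list with an unadjusted p under 0.05, where 2.87% of all genes passed. The list's median was 0.06.

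Downstream kinases followed. Among 36 measured genes of the JNK, p38 and ERK cascades, Map2k5, the kinase upstream of ERK5, had 4.20, 7.16 and 3.23 in untreated and 8.36, 9.36 and 7.19 in treated cells (3.44, 0.30 to 6.58). Dusp16, a phosphatase of JNK, had 6.66, 5.28 and 2.81 against 2.27, 2.30 and 2.23, so that all treated arrays were near the lowest value (-2.65, -5.30 to -0.01). The groups did not overlap in either gene, where 3.76% of all genes were apart and higher and 3.99% apart and lower. Adjusted p was 1 in limma for both. Mapk9 differed by -1.54, Mapk14 by 0.01 and Jun by -0.72, each with an interval that spanned 0. Akt1, the serine/threonine kinase of the PI3K pathway, stood out in its list. It had 10.20, 12.12 and 10.35 in untreated cells and 8.81, 5.36 and 6.27 with TNFR2 BA. All treated arrays lay below all untreated arrays, with differences of -1.39, -6.76 and -4.08 in the pairs and a fitted difference of -4.07 (-6.69 to -1.46, limma, adjusted p = 1). Akt2 was lower in 3 of 3 pairs as well (-1.34, -2.78 to 0.10), while the median of the 24 measured PI3K and AKT genes was -0.05. Of these 24, 1 was higher and 3 were lower in 3 of 3 pairs, where 11.1% and 11.8% of all genes were.

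Cell death genes did not move in common. Ripk3, the kinase of necroptosis, had 7.58, 6.66 and 7.75 in untreated cells and 8.85, 10.22 and 9.40 with TNFR2 BA (2.16, 0.24 to 4.07). Mlkl, the effector of the same pathway, had 2.42, 3.42 and 2.25 against 3.94, 6.95 and 3.70 (2.17). In both genes every treated array lay above every untreated array, and neither passed adjustment (limma, adjusted p = 1). Of the 39 measured apoptosis regulators 2 were apart and higher and 2 apart and lower, where 3.76% and 3.99% of all genes were. Birc5, the gene of survivin, was bright and slightly lower in each pair, with 12.44, 12.40 and 12.27 against 12.04, 11.69 and 11.66 (-0.57). Of 39 measured apoptosis regulators, 9 were higher and 5 were lower in 3 of 3 pairs, where 11.1% and 11.8% of all genes were, 1 passed an unadjusted p of 0.05, where 2.87% of all genes did, and the median was 0.15.

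The genes with the smallest p in the whole comparison belonged to no common pathway list. Rnf157, an E3 ubiquitin ligase gene (chromosome 11), had 2.22, 2.24 and 2.22 in untreated cells and 6.24, 8.11 and 7.72 with TNFR2 BA. The untreated arrays were at or near the lowest value of the table, every treated array was above them, and the difference was 5.13 (3.06 to 7.2, limma, adjusted p = 0.663). Top1, which encodes DNA topoisomerase I, had 2.39, 3.12 and 2.44 against 7.11, 7.93 and 9.03 (5.37), and 7.14, 2.99 and 8.15 with TNFR1 BA. Ggh, a hydrolase of folate polyglutamates, had 2.81, 2.62 and 2.62 against 6.51, 8.43 and 8.97 (5.29). These genes share a pattern, since 9 of 12 named higher genes had an untreated mean under 4. There a signal at or near the lowest value bounds expression only from above. The genes were also picked for a small p, which favours large differences, so the fitted values are not lower bounds. Exceptions at higher signal were Slc35b2, a Golgi transporter of the sulfate donor (3.76), Tph1, which makes serotonin (3.07), and Ppp1r18, an actin-binding phosphatase regulator (1.56). Slc35b2 had 10.65, 3.77 and 8.22 against 11.39, 11.67 and 10.86, so that untreated replicate 2 weighed heavily. With TNFR1 BA it had 10.90, 10.18 and 11.42. Ppp1r18 had the narrowest interval of these exceptions, 0.48 to 2.64, with 9.14, 8.41 and 9.55 against 10.71, 9.84 and 11.23. The remaining genes were Rassf7, 1700037C18Rik, Hoxa3, Snrk, Pdp1 and Mindy1, with differences of 2.87 to 4.66.

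Tnk2, which encodes the non-receptor tyrosine kinase ACK1 (chromosome 16), had the largest difference in either direction. Its signals were 12.07, 11.55 and 11.06 in untreated cells and 11.02, 2.22 and 2.27 with TNFR2 BA, a difference of -6.39 (-9.35 to -3.43, limma, adjusted p = 1). Treated replicates 2 and 3 were at or near the lowest value and treated replicate 1 was at the level of untreated cells. Without the treated array of replicate 1 the difference became -9.07 (limma, adjusted p = 9.65e-05), and without all arrays of replicate 1 it became -9.06 (adjusted p = 0.0199), and Tnk2 was then the only probe set past the threshold. Both fits leave out the treated array that went against the others, so their small p follows from that choice. With TNFR1 BA the same cells had 12.40, 10.69 and 10.84. Next by p were Ptprj, a receptor-type tyrosine phosphatase (-4.69), and Ckap5, a microtubule polymerase (-1.67). Ckap5 had 11.33, 11.47 and 11.73 against 9.78, 10.19 and 9.56, with an interval of -2.63 to -0.71, and was among the brightest of the named lower genes. Ermap, a membrane protein of erythroid cells, had 10.47, 9.35 and 10.56 against 7.19, 4.65 and 9.35 (-3.06). The others were Ccdc28b, Tcaim, Simc1, Fbxw5, Mycbp2, Hs6st2, Fam122a and Akt1, with differences of -5.47 to -3.65, and 6 of 12 named lower genes had a treated mean under 4, where the same limit holds for the treated arrays. These 24 genes were picked for a small p from the 291 higher and 313 lower probe sets that met the rule, so their values describe the extremes of the comparison.

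**Figure D3:**
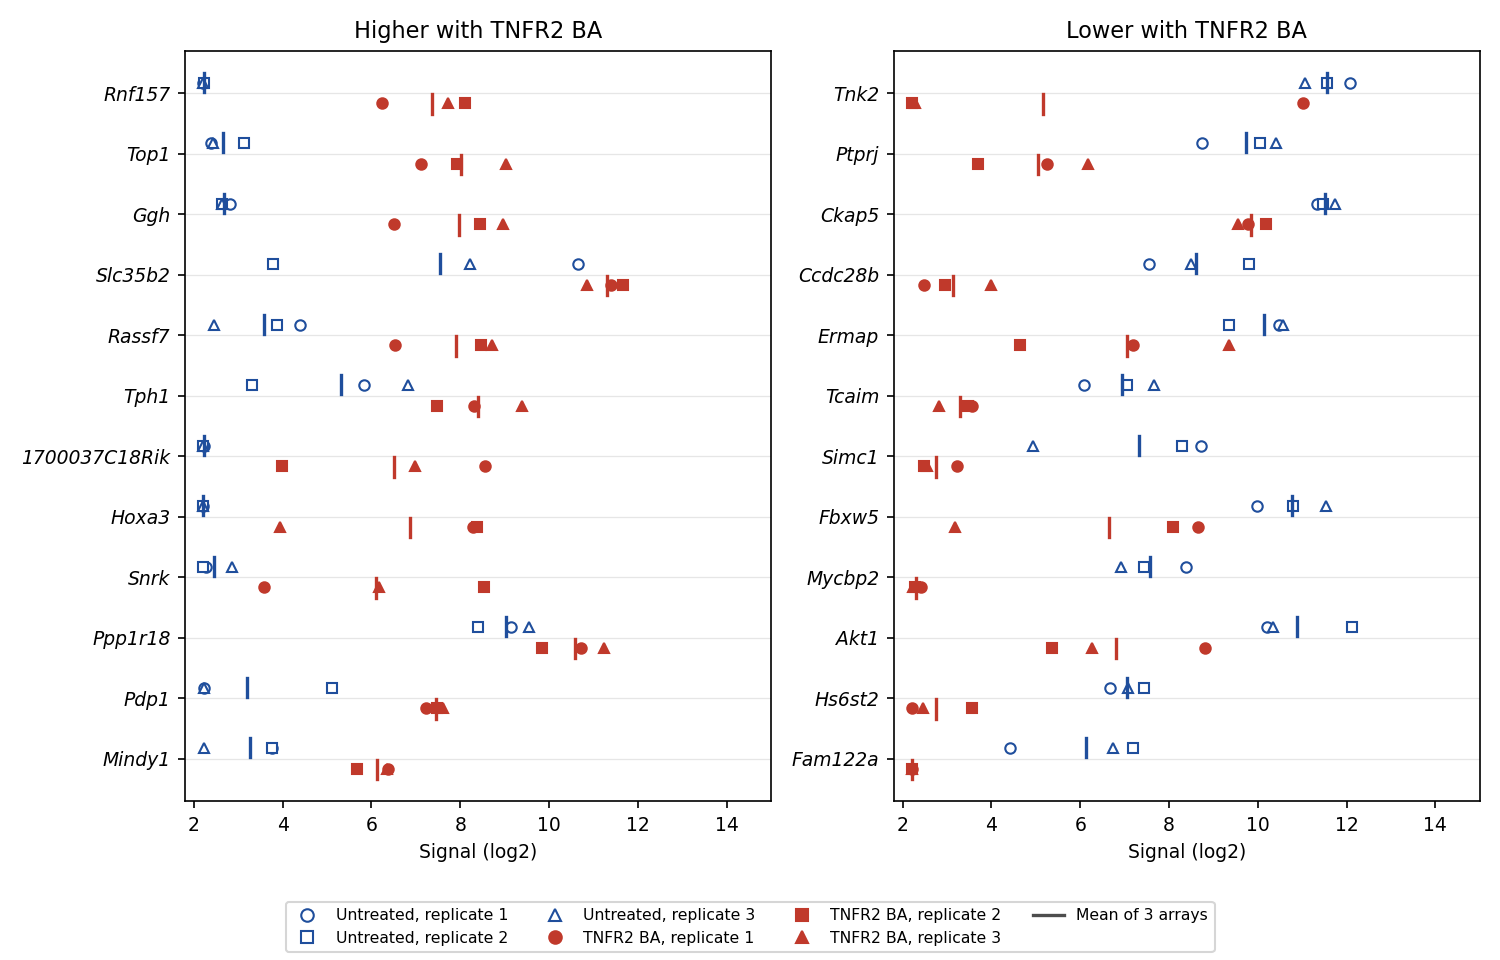
Log2 signal (x axis) of the 12 named higher and 12 named lower genes on the 6 arrays of JAK2V617F- cells, open blue symbols for untreated and filled red symbols for TNFR2 BA, shapes by replicate, bars for means of 3 arrays. Untreated cells sit near the lowest value in most higher genes, and Tnk2 shows treated replicate 1 at 11.02 apart from the other 2 treated arrays.

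Lin-Kit+ marrow cells are progenitors of several lineages, and markers of several lineages were bright in both groups. Myb, a transcription factor of progenitors, lay between 12.10 and 13.19 on the 6 arrays, Cd34 between 9.53 and 12.04, and Gata2 between 9.37 and 10.51. Kit, the marker of the sort, was less even, with 8.07, 8.64 and 4.92 in untreated and 6.01, 4.19 and 7.83 in treated cells, so that its probe set was low on 1 array of each group despite the gate. The neutrophil lineage genes Elane, at 13.28 to 14.40, and S100a8, at 14.72 to 15.26, and the mast cell and basophil genes Cpa3, at 10.88 to 12.88, and Mcpt8, at 11.0 to 12.42, were bright throughout. Fcer1a, also of mast cells and basophils, lay between 7.24 and 10.57 and was lower in 3 of 3 pairs (-1.17). Tpsab1 of mast cells was mostly dim, with 2.25, 6.45 and 2.25 in untreated and 2.33, 6.72 and 3.06 in treated cells. Gp9 of platelets was at or under 3.74 on all arrays, and Itga2b lay between 4.19 and 7.0. Pf4 of platelets was brighter, between 8.24 and 11.54, and lower in 3 of 3 pairs (-0.85). In bulk samples fewer cells of a type and less RNA per cell cannot be told apart.

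The fitted medians of the lineage lists in this paragraph were small, while list means could differ by more within a pair. B cell genes differed more between replicate numbers than between the groups. B cell genes averaged 7.49, 6.05 and 4.13 in untreated replicates 1 to 3 and 6.52, 6.34 and 3.42 in treated replicates. Vpreb1, a component of the pre-B cell receptor, had 10.31, 9.77 and 2.25 against 11.51, 10.93 and 2.22, so that it was near the lowest value in replicate 3 of both groups. Camp, a neutrophil granule gene, was in turn lower in replicate 2 of both groups, with 13.06, 8.0 and 13.03 against 13.53, 10.36 and 13.32. Neutrophil granule genes as a list had a median difference of 0.04 and erythroid genes of -0.23. Klf1, an erythroid transcription factor, had 10.42, 10.49 and 8.71 against 9.0, 7.98 and 7.60, lower in 3 of 3 pairs (-1.68, -3.93 to 0.57). The erythroid markers Gata1 and Car2 differed by 0.11 and -0.03, with mixed pairs. Rab27b, a vesicle transport gene of platelets, had 2.22, 2.22 and 4.85 against 7.77, 4.04 and 7.49 (3.34, 0.79 to 5.88). Cd8a of T cells was dim, with 6.10, 5.81 and 2.56 against 2.54, 3.45 and 2.56 (-1.97, -3.78 to -0.17). Megakaryocyte and platelet genes had a median of 0 and T and NK cell genes of -0.11.

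Among monocyte, macrophage and dendritic cell genes, 7 of 24 measured genes were lower in 3 of 3 pairs and 0 were higher, where 11.8% of all genes were lower and 11.1% higher in 3 of 3 pairs. Irf8, the transcription factor that directs monocyte and dendritic cell fate, had 9.07, 8.32 and 7.37 in untreated cells and 2.91, 7.94 and 3.61 in treated cells (-3.44, -6.16 to -0.72). Ly86, the partner of the toll-like receptor RP105, had 8.62, 8.93 and 8.0 against 6.64, 6.73 and 2.22 (-3.32, -6.26 to -0.39). C1qb had 2.22, 7.87 and 6.94 against 2.22 on each treated array, and Cd14 had 7.69, 5.0 and 2.28 against 2.28, 2.24 and 2.23. Irf8, Ly86 and C1qb had unadjusted p under 0.05, where 2.87% of all genes did, and an adjusted p of 1 in limma. Other members went the opposite way or were uneven. Ctss was higher by 0.73 and Cd68 by 0.91, Csf1r had 11.44, 12.34 and 2.23 against 11.66, 2.93 and 5.71, and the median of the list was -0.14. Its mean signal was 8.53, 8.05 and 7.22 in untreated and 8.07, 7.04 and 6.95 in treated replicates, lower in each pair, with overlapping groups.

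Of stem and progenitor cell genes, Meis1, a homeobox gene of stem cells, had 2.33, 2.27 and 2.24 in untreated cells and 7.70, 6.81 and 4.50 with TNFR2 BA (4.05, 0.71 to 7.4). Every untreated array was near the lowest value and every treated array above it, and with TNFR1 BA the values were 2.22, 10.12 and 6.24. Cd48 was lower in 3 of 3 pairs (-1.0, -1.89 to -0.11), mainly through treated replicate 3 at 9.61, and Gfi1, a repressor that restrains stem cell proliferation, was higher in 3 of 3 pairs, with 11.91, 11.29 and 12.77 against 12.34, 13.04 and 13.37 (0.93). The median of the 31 measured genes was 0.02. Stromal and endothelial genes had the largest list median, 0.94, with 7 of 8 genes positive, but the medians by pair were -0.04, 1.63 and 0.25, and Col1a2 and Lepr were at or near the lowest value on 5 of 6 arrays each.

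**Figure D4:**
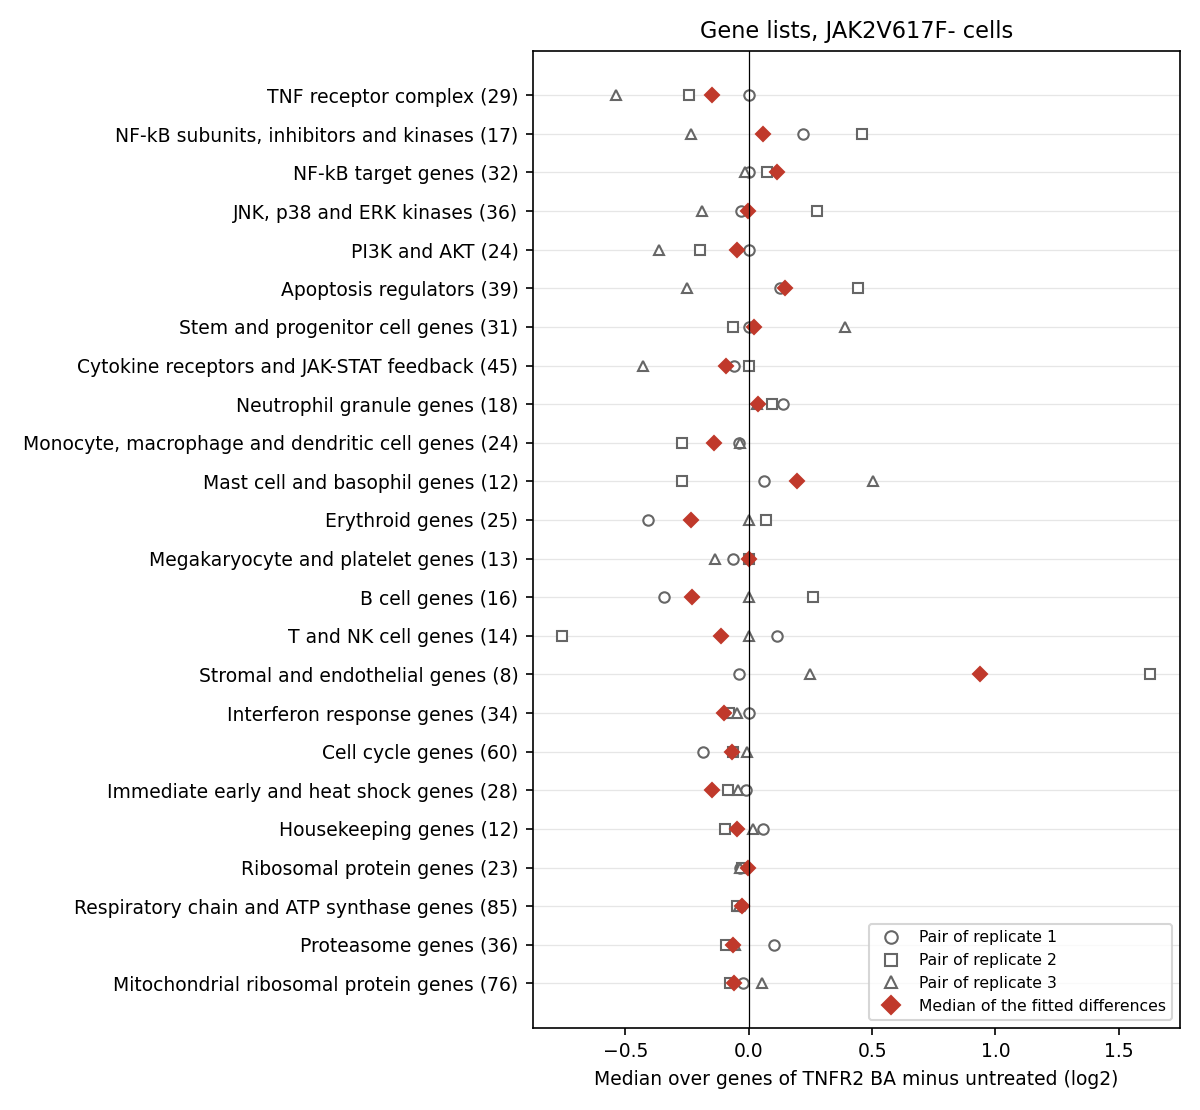
Median over the measured genes of each list (number in parentheses) of the difference between TNFR2 BA and untreated JAK2V617F- cells on the log2 scale (x axis), open symbols for the 3 pairs and a red diamond for the fitted differences. Apart from the 8 stromal and endothelial genes at 0.94, the fitted medians lie between -0.23 and 0.19.

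Housekeeping processes were close between the groups. Ribosomal protein genes had a median difference of 0.00, respiratory chain genes of -0.03, proteasome genes of -0.06 and mitochondrial ribosomal protein genes of -0.06. Inside these lists the brightest genes gave the narrowest intervals. Psmb7, a subunit of the proteasome core, had 13.19, 13.22 and 13.01 against 12.68, 12.70 and 12.12 (-0.64, -1.22 to -0.06), whereas Psmd4, of the regulatory particle, had 10.76, 10.68 and 10.87 against 11.60, 11.93 and 11.18 (0.80, 0.02 to 1.58). Psmc4, an ATPase of the same particle, was higher by 0.91 (0.09 to 1.74), with overlapping groups. Mrps25 differed by 4.21 and Mrps33 by -0.89, with the groups apart in both, and Mrpl36 by -0.81 with overlapping groups, so that single subunits of the same particle lay on opposite sides.

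Cell cycle genes had a median difference of -0.07 over 60 measured genes. Mcm10, a replication factor, had 11.72, 11.48 and 10.88 in untreated cells and 9.94, 10.52 and 9.57 in treated cells (-1.35, -2.52 to -0.18), and Rrm2, a subunit of ribonucleotide reductase, had 12.78, 12.91 and 12.93 against 12.74, 12.51 and 11.49 (-0.63). Ccnb2, a mitotic cyclin, was at 10.96, 11.95 and 11.40 against 10.28, 9.99 and 10.53 (-1.17). The groups were apart in all 3 genes, as in 4 of 60 members in this direction and 0 in the other, where 3.99% and 3.76% of all genes were apart. Interferon response genes had a median of -0.10 with 6 of 34 lower and 1 higher in 3 of 3 pairs, where 11.8% and 11.1% of all genes were. Trim25, an E3 ligase of antiviral sensing, had 11.47, 11.16 and 10.65 against 10.44, 10.49 and 8.47 (-1.29, -2.39 to -0.20). Isg20, an interferon-induced nuclease, had 5.92, 6.55 and 7.16 against 2.22, 2.22 and 5.99 (-3.06). In sum, 23 of 701 measured genes in the lists had an unadjusted p under 0.05, 9 higher and 14 lower, where 2.87% of all 9636 genes did.

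The direct comparison of TNFR2 BA with TNFR1 BA in JAK2V617F- cells takes no untreated array into its differences. The variance of its fit still comes from all 6 groups. The comparison gave 0 probe sets at an adjusted p under 0.05 in limma and in the paired t-test. At an unadjusted p under 0.05 limma gave 467 (4.52%), 279 higher (2.7%) and 188 lower (1.82%) with TNFR2 BA. The paired t-test gave 409. Without the TNFR2 BA array of replicate 1, Tnk2 alone passed (-8.82, limma, adjusted p = 0.00014), beside an adjusted p of 0.504 with that array kept. This rests on the same treated arrays as the comparison with untreated cells and is no second test. Rnf157 led here too, with 2.22, 2.24 and 2.22 under TNFR1 BA, the values of untreated cells, and a difference of 5.13. Frg1, a bright gene, had 12.86, 12.33 and 13.07 with TNFR2 BA and 11.27, 11.57 and 11.03 with TNFR1 BA, and 12.29, 11.96 and 12.10 in untreated cells, which lay between them (TNFR2 BA minus TNFR1 BA 1.46, limma, adjusted p = 0.36). Chd9, a chromatin remodeler, had 2.22, 2.23 and 4.50 with TNFR2 BA and 6.63, 7.76 and 7.23 with TNFR1 BA. Cox6b2, Macrod1 and Dus4l were higher with TNFR2 BA than with TNFR1 BA by 4.32 to 5.14, and for Pcca, 1700008J07Rik and Fgl2 the differences were -4.32, -4.74 and -3.30. Adam17 differed by -4.07 between TNFR2 BA and TNFR1 BA, where it had 6.90, 8.25 and 5.18. Both antibodies are measured against the same untreated arrays, so their differences from untreated share an error. Set side by side, Jun differed from untreated by -0.72 with TNFR2 BA and -3.29 with TNFR1 BA, Ikbkg by -2.15 and -2.53, Traf2 by 0.82 and 1.70, Nfkbia by -0.22 and 0.52 and Akt1 by -4.07 and -1.07. Some genes named against untreated cells shifted with both antibodies. In the same order Top1 differed by 5.37 and 3.44, Slc35b2 by 3.76 and 3.29 and Fbxw5 by -4.12 and -3.66. Fam122a differed by -3.90 with both, Trim25 by -1.29 and -1.72 and Psmb7 by -0.64 and -1.17. Others did not, such as Ggh with 5.29 and -0.17, Rassf7 with 4.34 and -0.13 and Ckap5 with -1.67 and -0.12.

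In JAK2V617F+ cells the same antibody gave other values, from arrays that enter the comparison in JAK2V617F- cells only through the shared fit. The difference with TNFR2 BA was -0.67 in JAK2V617F- and 7.78 in JAK2V617F+ cells for Xiap, and -0.49 and 5.13 for Mapk8. The study chose both genes from these same arrays, by filters for a change in JAK2V617F+ cells that the antibody reversed. Genes that changed in JAK2V617F- cells were dropped. The contrast between genotypes for these genes therefore follows in part from that choice and is no independent test. Untreated JAK2V617F+ cells had Xiap signals of 2.53 and 2.31 on their 2 arrays, and with TNFR2 BA 9.83, 10.53 and 12.01, beside 7.99 to 11.55 on the 6 arrays of JAK2V617F- cells. The test of the difference between genotypes gave -8.44 (SE 1.57) for Xiap and -5.62 (SE 2.03) for Mapk8, and neither passed adjustment over all probe sets (limma, 0 at an adjusted p under 0.05, smallest 0.458, and 448 or 4.33% at an unadjusted p under 0.05, 185 or 1.79% higher and 263 or 2.54% lower). Without the untreated JAK2V617F+ array of replicate 1 the counts were 4 adjusted and 898 unadjusted, and without all arrays of replicate 1 they were 0 and 1037. Itm2a, Prdx2 and Asb17, which the study took from the same filters, were at or near the lowest value on most of the 6 arrays of JAK2V617F- cells. Their differences there were -0.83, 0.14 and 0.73. Mycbp2, a ubiquitin ligase, differed by -5.27 with TNFR2 BA in JAK2V617F- cells and by 5.40 in JAK2V617F+ cells, and Cry2, a clock repressor, differed by -0.59 and 5.64. Fam220a differed by 3.56 in JAK2V617F- cells and by -3.34 in JAK2V617F+ cells. Tnfaip1 and Psmb7 had test values of -8.47 and -1.74, and 3110082I17Rik, Coro7, Osbpl7 and Itm2a of 1.94, 7.09, 6.20 and 5.66. Untreated JAK2V617F+ cells have only 2 arrays, and these values rest on them.

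**Figure D5:**
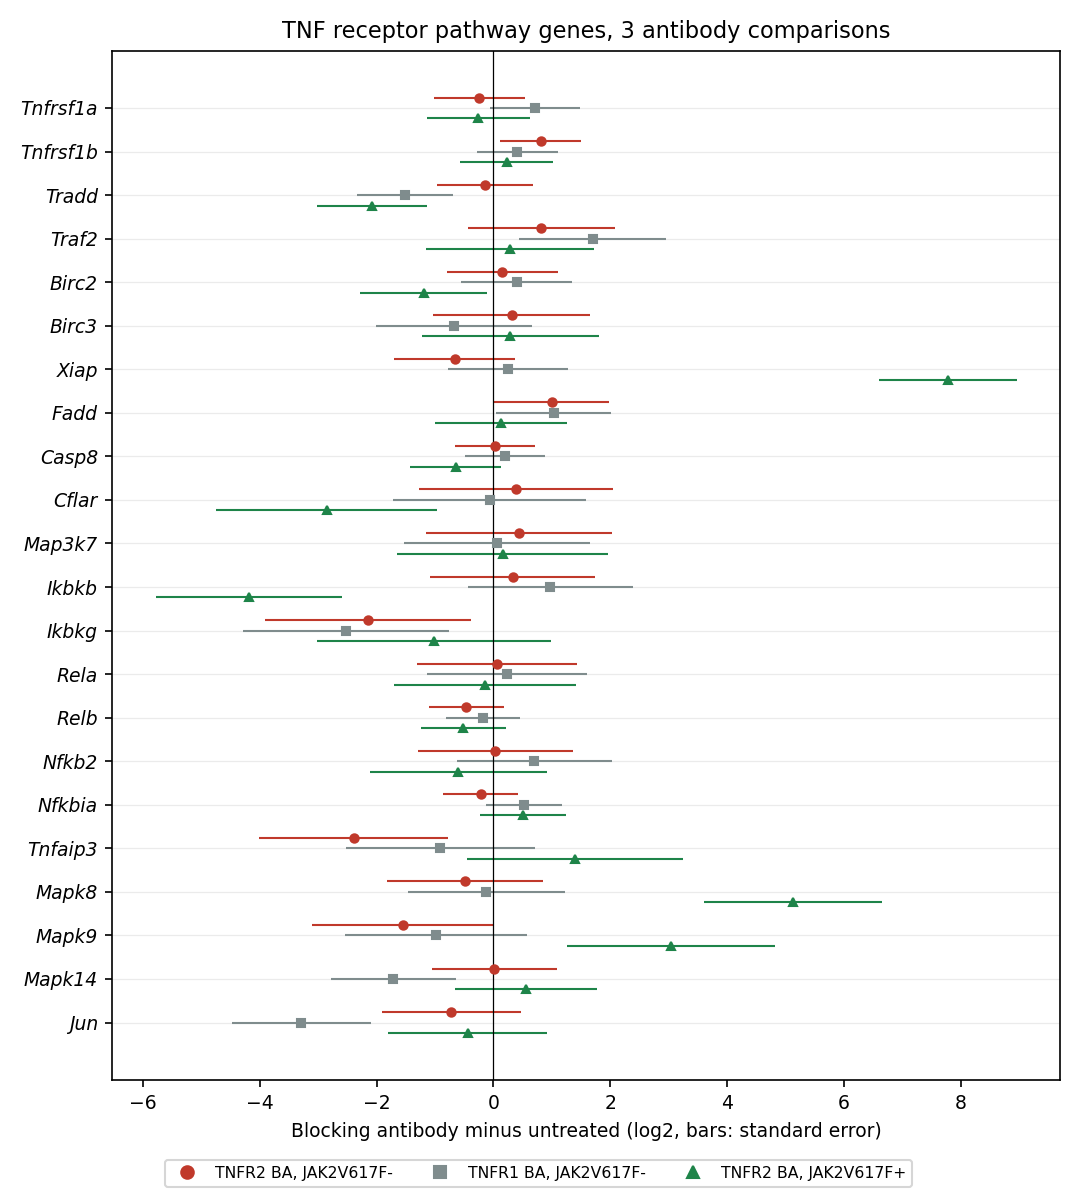
Difference from untreated cells on the log2 scale (x axis, bars give the standard error of the fit) for 22 TNF receptor pathway genes with TNFR2 BA in JAK2V617F- cells (red), TNFR1 BA in JAK2V617F- cells (grey, sharing the untreated arrays) and TNFR2 BA in JAK2V617F+ cells (green). Xiap is at -0.67, 0.25 and 7.78 and Mapk8 at -0.49, -0.12 and 5.13 in this order.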

How the data were processed

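Expression was measured in 6 groups of sorted mouse cells on Affymetrix mouse expression arrays. The authors deposited log2 signals for each probe set, made with Affymetrix Expression Console per the submitters' processing notes, and these were used as given. Their normalization was not stated in the sources used here. The table holds 10335 probe sets with values of 2.22 to 15.49 and no detection calls, and the number of arrays limits the precision. Of these, 9651 had 1 gene symbol, 27 several and 657 none, covering 9636 genes, and 9625 were matched by Entrez ID to RefSeq (GRCm38.p6). Where several probe sets named 1 gene, the brightest over 17 arrays stood for it.

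Group means of 6 groups were fitted to 17 arrays with limma 3.58.1 in R 4.3.3, with the replicate number as a block, a variance trend and Benjamini-Hochberg adjustment over all probe sets. Replicate numbers were read as the 3 independent experiments of the methods. Deviations from group means correlated on average by 0.00828, 0.0714 and 0.144 within numbers 1, 2 and 3 and by -0.0328 between numbers. For 13 of 17 arrays the single best correlated array of another group had the same number. The p-values measure the spread between arrays of these 3 experiments. Named genes were up to 12 per direction of smallest p among probe sets whose groups did not overlap, whose pairs had the same sign and whose higher group had a mean of at least 6, up to 5 per direction by the same rule in the contrasts with TNFR1 BA and between genotypes, list members with an unadjusted p under 0.05, fixed TNF pathway genes, cell markers and genes named by the study. The other list members in the text were chosen after their values were seen. The 26 gene lists and the members were chosen with earlier results of these data known. The fit was tested on simulated data. Alternatives were no block, all 18 arrays, the compared arrays alone, quantiles made equal, dim probe sets left out, no variance trend, array weights, a t-test paired by replicate number (the methods name a paired test only for JAK2V617F+ against JAK2V617F- cells of the same mice) and leave-one-out.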

Additional observations from a re-analysis of the deposited data

How the results depend on the processing

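Without the replicate block, limma gave 0 calls at an adjusted p under 0.05 in all 3 comparisons, and 255, 382 and 396 at an unadjusted p under 0.05 for TNFR2 BA against untreated, TNFR2 BA against TNFR1 BA and the difference between genotypes, where the paired fit gave 306, 467 and 448. With only probe sets of a mean of at least 6, which leaves fewer probe sets to test, these counts were 156, 281 and 275. With array weights the first was 604, and the cause was not tested. Leaving out replicates or single arrays gave 0 to 1 adjusted calls and 273 to 404 unadjusted calls for TNFR2 BA against untreated, 0 to 1 and 429 to 589 against TNFR1 BA, and 0 to 4 and 351 to 1037 for the difference between genotypes. Tnk2 was the call in all 3 comparisons without the treated array of replicate 1 (adjusted p = 9.65e-05, 0.00014 and 0.0041) and in the first 2 without replicate 1 (0.0199 and 0.0341). These calls rest on the same treated arrays, since the array left out was the treated one at the level of untreated cells. Without the untreated JAK2V617F+ array of replicate 1, the calls between genotypes were BC031181, Cenpk, Sin3a and Cops9, and 898 passed unadjusted, whereas 1037 did so without all of replicate 1. No other alternative gave an adjusted call. The 24 named genes kept the sign of their difference in all 322 refits. Their choice by groups that do not overlap and pairs of the same sign largely fixes this, so it is no check of them. Over 70 genes, 58 of 948 refits had the opposite sign, including Mapk8 at 0.46 without treated replicate 3. That fit kept the untreated array of the broken pair, and Mapk8 was lower in 3 of 3 pairs. List medians had the opposite sign in 82 of 364 refits and in 25 of 26 lists, with the stromal and endothelial genes (0.30 to 1.57) as the exception. Signals near the lowest value give only bounds, and differences of dim genes are limited by this.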

Other observations

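Arrays of the same group could differ by far more than the groups. An array lay at least 4 log2 units below both other arrays of its group for 64, 115 and 175 probe sets in untreated replicates 1 to 3 and for 89, 155 and 185 in treated replicates, and at least 4 above them for 109, 140 and 209 and for 139, 189 and 217. Replicate 3 had the highest and replicate 1 the lowest counts in both groups. Genes of this kind included Csf1r, the receptor of macrophage colony-stimulating factor, which was at 2.23 in untreated replicate 3 and at 12.34 in untreated replicate 2, and Itgb3, an integrin of platelets, which had 9.38, 2.40 and 2.88 in untreated and 2.43, 8.43 and 2.39 in treated cells. The lowest value of the table was held by 80 probe sets on all 3 untreated arrays and by 79 on all 3 treated arrays, and 1236 probe sets had it on at least 1 of the 6 arrays.

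Cytokine receptor and signalling genes had a median difference of -0.09 over 45 measured genes, with 3 higher and 6 lower in 3 of 3 pairs, where 11.1% and 11.8% of all genes were. Ptpn11, the phosphatase SHP2, had 9.80, 10.86 and 10.15 in untreated and 8.26, 8.99 and 9.18 in treated cells (-1.46, limma, adjusted p = 1), with the groups apart. Jak2 had 9.94, 8.86 and 8.33 against 9.60, 8.73 and 6.0, and Socs3, a feedback inhibitor of STAT3, had 9.24, 10.08 and 9.61 against 10.56, 2.51 and 7.24. Immediate early and heat shock genes had a median of -0.15, and Egr1 followed the experiments, with 9.50, 3.62 and 11.17 against 9.53, 5.93 and 11.23.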
